A study of Mus musculus with 107 samples.

Results

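The regions described are 1863 sites in E14 mouse embryonic stem (ES) cells where the Polycomb repressive complex 2 (PRC2) and its histone mark H3K27me3 were found together and RNA polymerase II (RNAPII) was not. They were chosen as rows of the authors' PRC2 peak list on chromosomes 1 to 19 and X that overlap by 1 bp an H3K27me3 peak and overlap no RNAPII peak from ChIP-seq or from ChIA-PET. They made up 7.96% of 23415 PRC2 peaks and 48.4% of the 3847 PRC2 peaks with H3K27me3. The other PRC2 peaks with H3K27me3 were 1033 with an RNAPII peak in ChIA-PET but none in ChIP-seq, and 951 with an RNAPII peak in ChIP-seq. The peaks were chosen by the measured PRC2, H3K27me3 and RNAPII calls, which are therefore not results; the same holds for values of those peak lists, given here as descriptions.

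PRC2, whose core subunits are Eed, Ezh2 and Suz12, methylates lysine 27 of histone H3, and its targets in ES cells are mostly CpG-rich starts of developmental genes that are kept silent until a lineage needs them. Some targets also carry paused or initiating RNAPII, the state known as poised, and others carry none. ChIA-PET joins DNA ends held together by an immunoprecipitated protein, so that each paired-end tag (PET) links a pair of genomic positions.

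The series holds 107 samples. In E14 cells, an established mouse ES line grown without feeder cells, PRC2 was mapped with 24 ChIA-PET libraries of Suz12, Ezh2 and Eed, which the authors pooled into a single peak list and a single interaction list without replicates. RNA was counted in 26 libraries of B6NJ mouse ES cells: clones chr9-F1 (2 libraries) and chr9-G9 with the interval chr9:37451506-37461721 targeted, clones chr7-D4 and chr7-F4 with chr7:143440438-143450716 targeted, clones chr3-C2 and chr3-H7, clones chr2-D10 and chr2-G5, and the undeleted parental line, with 3 libraries for each line but chr9-F1. The intervals deleted in the chr3 and chr2 clones are not used here, since the labels give none. All B6NJ lines were grown on irradiated mouse embryonic fibroblast feeders with the inhibitors PD0325901 and CHIR99021, so that feeder RNA can be in every library. The 10 Ezh2 ChIA-PET libraries are pairs from chr9-F1, chr9-G9, chr7-D4, chr7-F4 and the parental line, and 1 of the chr9-F1 libraries carries the cell type label of the parental line. Each deletion is represented by 2 clones and the parental line by 1 line, and the labels do not say whether replicates are separate cultures. P-values here reflect only how these libraries vary, which may be technical.

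RNA libraries held 90.3 to 127.8 M gene counts in the chr9 and parental lines and 39.7 to 60.2 M in the others. In the chr7, chr3 and chr2 comparisons, depth and deletion change together and cannot be told apart. All 8 ES cell markers were above 1 CPM, a count scaled to the total of its library, in the parental line, between 83.2 and 1976 CPM, and none of their genes starts at an RNAPII-free Polycomb peak. They were not constant across lines. Called higher and lower than in the parental line were 3 and 1 of them in chr9, 2 and 4 in chr7, 4 and 2 in chr3 and 4 and 2 in chr2. The log2 changes in chr2 ran from -1.09 for Klf4 to 1.22 for Dppa5a.

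The starts of a few genes that carry the results are printed first, so that their base composition can be read. Six3 and Six2, and Nkx2-1 and Pax9, are neighbours joined by 2 of the 3 strongest contacts between RNAPII-free Polycomb peaks. Foxb2 has the most enriched peak at a gene, Olig2 is a start under such a peak whose gene had RNA reads, and Robo3 and Igf2 are at peaks linked to the 2 targeted elements. Each sequence runs 5′ to 3′ from 250 bases before to 50 bases after the start, from RefSeq on GRCm38.p6 (mm10), with every CpG dinucleotide in capitals. Only windows that overlap RNAPII-free Polycomb peaks and no H3K27me3-marked PRC2 peak with RNAPII were used. Where a gene has several such windows, the window with the most CpG was taken.
Six3: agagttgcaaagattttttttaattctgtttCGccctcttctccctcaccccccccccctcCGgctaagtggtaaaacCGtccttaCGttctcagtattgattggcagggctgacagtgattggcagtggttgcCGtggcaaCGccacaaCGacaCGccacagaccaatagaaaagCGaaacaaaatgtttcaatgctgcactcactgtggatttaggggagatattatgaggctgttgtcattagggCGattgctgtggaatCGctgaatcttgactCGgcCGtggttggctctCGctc
Six2: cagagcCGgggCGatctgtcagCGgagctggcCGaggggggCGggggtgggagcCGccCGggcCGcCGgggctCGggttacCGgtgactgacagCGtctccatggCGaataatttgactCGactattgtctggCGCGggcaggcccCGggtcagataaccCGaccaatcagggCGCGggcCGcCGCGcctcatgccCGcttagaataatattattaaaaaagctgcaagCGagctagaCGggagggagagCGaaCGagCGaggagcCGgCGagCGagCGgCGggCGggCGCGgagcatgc
Nkx2-1: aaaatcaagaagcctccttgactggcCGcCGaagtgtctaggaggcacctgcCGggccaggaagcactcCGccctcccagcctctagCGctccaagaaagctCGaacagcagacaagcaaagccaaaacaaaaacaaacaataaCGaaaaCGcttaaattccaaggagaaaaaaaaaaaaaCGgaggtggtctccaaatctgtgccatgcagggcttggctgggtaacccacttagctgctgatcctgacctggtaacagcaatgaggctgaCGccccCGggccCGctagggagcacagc
Pax9: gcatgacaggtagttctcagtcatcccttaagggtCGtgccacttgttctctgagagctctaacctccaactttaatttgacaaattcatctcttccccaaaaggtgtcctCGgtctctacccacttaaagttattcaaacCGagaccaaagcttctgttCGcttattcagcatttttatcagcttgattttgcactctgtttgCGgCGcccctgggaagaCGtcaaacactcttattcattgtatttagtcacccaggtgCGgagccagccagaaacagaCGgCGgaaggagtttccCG
Foxb2: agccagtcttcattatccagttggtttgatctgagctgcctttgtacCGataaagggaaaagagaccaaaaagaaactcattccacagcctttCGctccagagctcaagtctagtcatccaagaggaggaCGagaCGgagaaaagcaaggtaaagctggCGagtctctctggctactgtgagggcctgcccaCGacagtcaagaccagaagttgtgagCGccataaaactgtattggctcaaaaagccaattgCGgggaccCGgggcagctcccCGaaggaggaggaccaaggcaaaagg
Olig2: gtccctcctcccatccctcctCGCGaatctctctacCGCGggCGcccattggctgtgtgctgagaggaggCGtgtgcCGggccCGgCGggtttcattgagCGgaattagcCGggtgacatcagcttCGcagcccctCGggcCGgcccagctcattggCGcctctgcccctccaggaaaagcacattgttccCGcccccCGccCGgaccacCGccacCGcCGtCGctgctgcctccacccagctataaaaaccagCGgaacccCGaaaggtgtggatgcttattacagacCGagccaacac
Robo3: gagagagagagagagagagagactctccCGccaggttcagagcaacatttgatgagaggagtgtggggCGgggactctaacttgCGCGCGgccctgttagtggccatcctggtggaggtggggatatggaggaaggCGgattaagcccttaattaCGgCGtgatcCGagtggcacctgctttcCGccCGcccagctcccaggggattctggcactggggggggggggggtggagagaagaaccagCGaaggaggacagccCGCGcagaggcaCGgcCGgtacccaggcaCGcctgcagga
Igf2: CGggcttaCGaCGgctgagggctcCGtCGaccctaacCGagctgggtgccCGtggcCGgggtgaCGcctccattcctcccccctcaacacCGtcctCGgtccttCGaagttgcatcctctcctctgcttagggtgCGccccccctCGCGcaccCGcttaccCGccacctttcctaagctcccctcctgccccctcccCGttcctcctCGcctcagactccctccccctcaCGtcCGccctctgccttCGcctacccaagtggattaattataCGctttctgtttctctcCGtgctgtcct
These starts lie at chr17:85620584-85620883 on the plus strand (Six3), chr17:85688205-85688504 on the minus strand (Six2), chr12:56536859-56537158 on the minus strand (Nkx2-1), chr12:56695221-56695520 on the plus strand (Pax9), chr19:16873781-16874080 on the minus strand (Foxb2), chr16:91225300-91225599 on the plus strand (Olig2), chr9:37433126-37433425 on the minus strand (Robo3) and chr7:142658755-142659054 on the minus strand (Igf2). They differ widely in CpG content: Six2 has 37 CpG and 67.3% GC in its 300 bases, whereas Foxb2 has 10 CpG and 51.7% GC and Pax9 11 CpG and 47.0% GC.

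Over the 860 such windows of coding genes that overlapped RNAPII-free Polycomb peaks and no peak of the other 2 classes, the median held 19 CpG and 63.3% GC. The median was 23 CpG in 622 windows at peaks with RNAPII in ChIA-PET only, 26 CpG in 708 windows at peaks with RNAPII in ChIP-seq, and 13 CpG in all 21045 windows of coding genes. A window with at least 50% GC and an observed to expected CpG ratio of at least 0.6 was counted as island-like, and 59.8% of the windows in RNAPII-free Polycomb peaks were, against 69.6% and 79.0% in the classes with RNAPII in ChIA-PET only and in ChIP-seq, and 45.6% of all windows. A consensus of the factor NRF1, searched on both strands, was in 2.44% of windows in RNAPII-free Polycomb peaks, against 2.25% and 3.95% in the classes with RNAPII in ChIA-PET only and in ChIP-seq, and 6.44% of all windows. CCGGAAGT, a core bound by ETS factors, also searched on both strands, was in 0.698% of windows in RNAPII-free Polycomb peaks, against 0.965% with RNAPII in ChIA-PET only, 0.989% with RNAPII in ChIP-seq and 5.20% of all windows, so that low shares of both were common to the 3 classes. TATAAA on the plus strand of the gene was in 3.49% of windows in RNAPII-free Polycomb peaks, against 4.50% with RNAPII in ChIA-PET only, 6.36% with RNAPII in ChIP-seq and 8.29% of all windows. Of the other 3 motifs searched, the E-box CACGTG was in 7.44% of windows in RNAPII-free Polycomb peaks, against 9.65% with RNAPII in ChIA-PET only, 8.76% with RNAPII in ChIP-seq and 7.91% of all windows. A CTCF core was in 1.63%, against 2.09%, 0.847% and 1.64% in the same order, and a YY1 motif in 0 of the 860, against 0 of 622, 0.141% of 708 and 0.893% of all. These matches describe letters in the window only.

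RNAPII-free Polycomb peaks had a median length of 2903 bp, a shortest of 250 bp, a 90th percentile of 6806 bp and a longest of 36075 bp. Median lengths were 3137 bp for peaks with RNAPII in ChIA-PET only and 2833 bp for peaks with RNAPII in ChIP-seq. The authors' fold enrichment over background had a median of 5.44 at RNAPII-free Polycomb peaks, 5.78 at those with RNAPII in ChIA-PET only and 4.42 at those with RNAPII in ChIP-seq. The classes overlapped widely in both length and enrichment. H3K27me3 covered a median of 61.5% of the length of an RNAPII-free Polycomb peak, and 1857 of the 4347 H3K27me3 peaks, 42.7%, touched at least 1.

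The nearest RNAPII peak was a median of 15937 bp away. It was more than 50 kb away for 415 of the 1863 peaks and within 1 kb for 142. The nearest to the limit of the rule were peaks at Nxn, 28 bp from an RNAPII peak, Lrfn3 at 34 bp, Wnt3a at 51 bp, Trim9 at 55 bp and Mapt at 67 bp. Just outside it were peaks that overlapped RNAPII by 21 bp at Rasgrp2, 26 bp at Atoh8 and 49 bp at Chd5.

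A gene start lay within 2 kb of 1319 of the 1863 RNAPII-free Polycomb peaks, 70.8% (95% Wilson interval 68.7 to 72.8, counting error only), against 82.2% of peaks with RNAPII in ChIA-PET only, 92.3% of peaks with RNAPII in ChIP-seq and 37.3% of all PRC2 peaks. The remaining 544 had a median length of 1904 bp and a median fold enrichment of 3.09, against 3249 bp and 6.80 for those with a gene start. For 22760 genes without a listed start both gene ends were counted, so some of these starts can be the other end of a gene. A peak of CTCF, the factor that anchors many chromatin loops, overlapped 18.7% of RNAPII-free Polycomb peaks (interval 16.97 to 20.51), against 20.8% and 18.8% in the classes with RNAPII in ChIA-PET only and in ChIP-seq. The share with CTCF followed length: it was 3.61% of 332 peaks under 1 kb, 17.3% of 629 from 1 to 3 kb, 22.6% of 807 from 3 to 10 kb and 47.4% of 95 of at least 10 kb.

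The 10 most enriched RNAPII-free Polycomb peaks at genes ranged from 27.3-fold to 36.0-fold. Foxb2, a forkhead factor, had a 36.0-fold peak of 11046 bp, and Tbx1, a T-box factor of the pharyngeal region, a 30.6-fold peak of 14.9 kb. Hand2, a heart and limb factor, had a 30.1-fold peak of 34.5 kb, and Nkx2-1, a lung, thyroid and forebrain factor, a 29.3-fold peak of 16017 bp. Foxf2 (28.8-fold), Foxc2 (28.7-fold), Skor1 (28.5-fold), Spag6, a gene of the sperm flagellum (28.1-fold), Tal1 (27.5-fold) and Olig2 (27.3-fold) completed the 10 highest. All 10 lay between 10.6 and 34.5 kb in length, and 5 of them held a CTCF peak. The longest of all, at 36.1 kb, covered Hoxd4 and the noncoding gene Haglr in the Hoxd cluster, and the next, at 34972 bp, covered Pax3, a factor of neural crest and muscle.

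Gene lists for developmental and neuronal functions were more often at RNAPII-free Polycomb peaks than protein-coding genes as a whole, of which 1159 of 21631, 5.36%, had a start there. Of the same 21631, 815 had a start at peaks with RNAPII in ChIA-PET only and 914 at peaks with RNAPII in ChIP-seq. These classes are smaller, so list counts are to be read against the count of all coding genes in the same class. Homeobox genes outside the Hox clusters were there in 56 of 123 cases, 45.5%, led by Nkx2-1, Otx1 (26.9-fold) and Nkx1-1 (26.3-fold); 40 of the 123 were at peaks with RNAPII in ChIA-PET only and 22 at peaks with RNAPII in ChIP-seq. The broader symbol pattern first used for this list, which took in unrelated genes, gave 65 of 186, 34.9%. Forkhead, Gata, Sox, T-box and bHLH regulators were there in 39 of 114 cases, against 23 at peaks with RNAPII in ChIA-PET only and 17 at those with RNAPII in ChIP-seq. Secreted ligands and antagonists were there in 35 of 101 cases, led by Ihh (21.3-fold), Wnt7b (20.8-fold) and Grem1 (20.7-fold). Of the 101, 15 were at peaks with RNAPII in ChIA-PET only and 14 at peaks with RNAPII in ChIP-seq.

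Genes of neuronal signalling followed. Neurotransmitter receptors were there in 46 of 127 cases, 36.2%, against 15 at peaks with RNAPII in ChIA-PET only and 3 at peaks with RNAPII in ChIP-seq; the most enriched were Grid1, a delta-type glutamate receptor (21.1-fold), Adra1d, an adrenergic receptor (19.7-fold), and Sstr1, a somatostatin receptor (17.6-fold). Ion channels were there in 54 of 180 cases, against 19 with RNAPII in ChIA-PET only and 15 with RNAPII in ChIP-seq, led by the potassium channels Kcnk9 (26.5-fold), Kcna1 (20.5-fold) and Kcna2 (15.9-fold). Adhesion and guidance genes of neurons were there in 24 of 119 cases and solute carriers in 32 of 337. At peaks with RNAPII in ChIA-PET only were 12 and 16 of them, and at peaks with RNAPII in ChIP-seq 19 and 11.

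The Hox clusters were mostly in the classes with RNAPII. Only Hoxd4 and Hoxb1 of 39 Hox genes started at an RNAPII-free Polycomb peak, against 18 at peaks with RNAPII in ChIA-PET only and 19 at peaks with RNAPII in ChIP-seq. None of 25 pluripotency genes did, whereas 7 of 22 primitive endoderm genes did, among them Foxa2 (24.4-fold) and Sox7 (13.8-fold). Of 38 imprinted genes, Kcnk9, Igf2 (22.004-fold), Kcnq1 (6.20-fold) and Grb10 (2.46-fold) did, and of 23 germline genes Tdrd1 (3.41-fold), Ddx4 (2.79-fold) and Slc25a31 (2.18-fold) did. These shares are descriptions of 1 pooled map and no list was tested.

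Chromosome X held 16 of the peaks, 55.2% of its 29 PRC2 peaks with H3K27me3, and on the autosomes the share ran from 40.4% on chromosome 16 to 57.3% on chromosome 18.

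**Figure D1:**
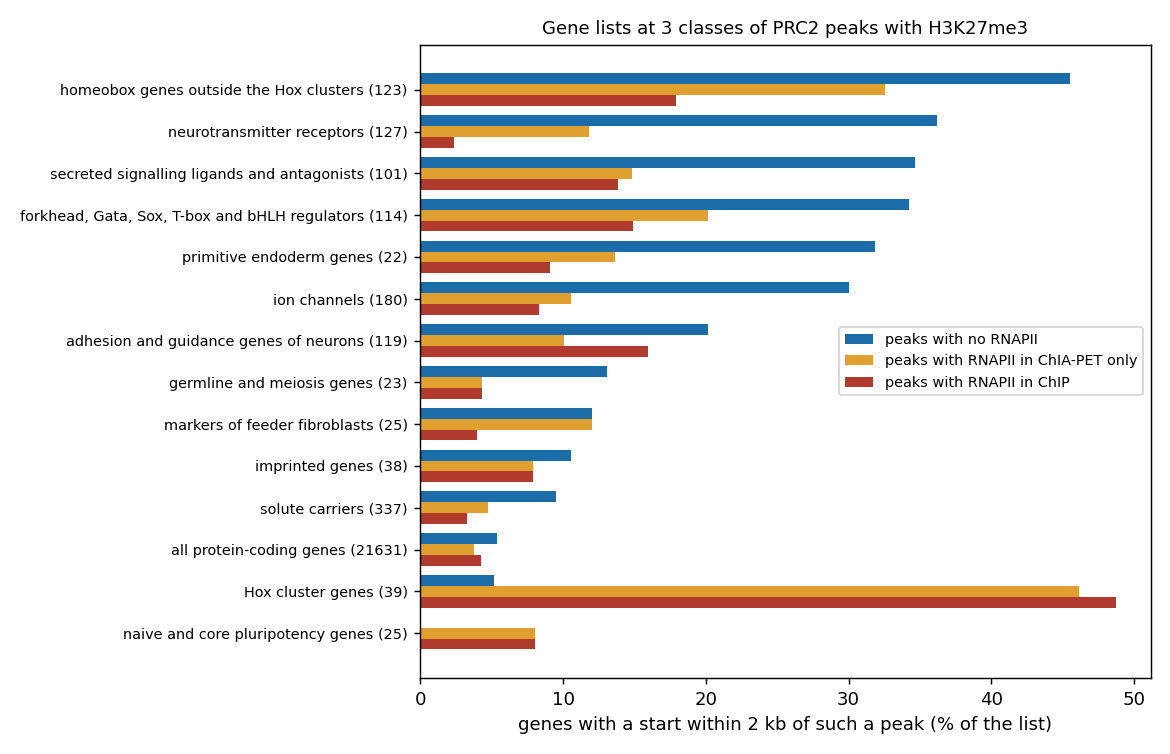
Share of each gene list (number of genes in parentheses) with a start within 2 kb of a PRC2 and H3K27me3 peak, for peaks with no RNAPII, with RNAPII in ChIA-PET only and with RNAPII in ChIP-seq. Homeobox genes stand at 45.5% for peaks with no RNAPII, and Hox cluster genes at 5.13%, the lowest list but the pluripotency genes.

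The plot of gene lists shows more neurotransmitter receptors and ion channels at peaks with no RNAPII than at either class with RNAPII, though most genes of both lists were at no such peak, and more Hox genes in the classes with RNAPII. A gene with several starts can be counted in more than 1 class.

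In the pooled E14 PRC2 interaction list, 19121 of 309803 interactions had an anchor at an RNAPII-free Polycomb peak, and 1798 of the 1863 peaks, 96.5%, had at least 1. Peaks with RNAPII in ChIA-PET only were linked in 99.4% of cases and those with RNAPII in ChIP-seq in 98.1%. The median number of interactions was 7 per RNAPII-free Polycomb peak, against 8 and 6 in the classes with RNAPII in ChIA-PET only and in ChIP-seq, and at 1 to 3 kb of length it was 5 in all 3 classes. Of the interactions at RNAPII-free Polycomb peaks 1109 stayed within 1 peak and 18012 left it. Their other anchor touched another RNAPII-free Polycomb peak in 7.49%, a peak with RNAPII in ChIA-PET only in 11.1% and a peak with RNAPII in ChIP-seq in 6.08%. It touched a PRC2 peak without H3K27me3 in 14.3% and no PRC2 peak in 63.6%. Among the 2102 with at least 10 PETs, 17.8% touched another RNAPII-free Polycomb peak, 28.7% a peak with RNAPII in ChIA-PET only and 12.9% a peak with RNAPII in ChIP-seq. A PRC2 peak without H3K27me3 was touched in 36.7% of these and no PRC2 peak in 21.5%. An anchor can touch several classes, so these shares do not add up to 100.

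**Figure D2:**
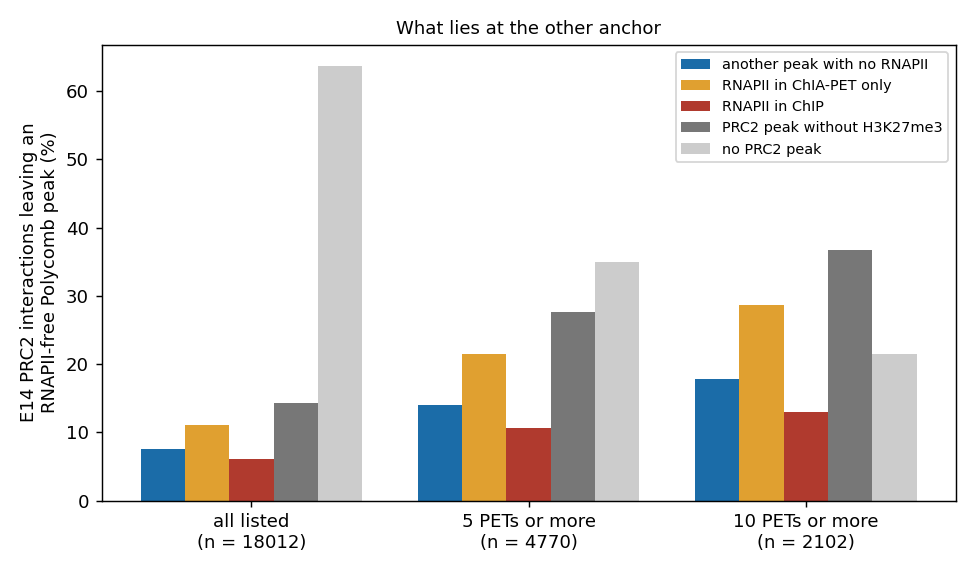
What the other anchor of E14 PRC2 interactions touches when the interaction leaves an RNAPII-free Polycomb peak, as % of all listed interactions and of those with at least 5 and at least 10 PETs. The share with no PRC2 peak stands at 63.6% of all listed interactions and at 21.5% of those with at least 10 PETs.

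The plot of partners shows every class of Polycomb peak taking a larger share of the interactions with more PETs. It describes 1 list, in which strongly bound regions also collect more tags.

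The 10 links with most PETs between anchors at RNAPII-free Polycomb peaks and with different genes had 472 to 1849 PETs and spanned 51.2 to 849 kb. The link with most PETs, 1849, ran from Hoxb13 to the Hoxb2 to Hoxb9 part of that cluster, through wide anchors that touch such peaks beside the Hox starts. Six3 and Six2, homeobox factors of forebrain and kidney, were joined by 1538 PETs over 69.2 kb, and Nkx2-1 and Pax9 by 907 PETs over 162 kb. Tbx2 and Tbx4, T-box factors of limb and lung, were joined by 894 PETs, the region of Fev, Cryba2 and Cfap65 and the hedgehog ligand Ihh by 668, Foxq1 and Foxf2 by 627, and Nkx2-2 and Pax1 by 604. Gsx1 and Cdx2 had 524 PETs and Nkx2-1 and Nkx2-9 486. Pax9 and Foxa1, 849 kb apart, had 472. Genes are named here by a start in the anchor: Hoxb13, the other Hoxb genes, Cfap65, Cryba2, Nkx2-2 and Foxa1 do not start at an RNAPII-free Polycomb peak, and Foxq1 starts at a 1.67-fold one, against 24.9-fold for Six3 and 22.8-fold for Six2.

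Of the 1863 peaks, 969, or 52.0%, were linked to at least 1 other RNAPII-free Polycomb peak. Pax3 had 14 such partners, Pax9 and Ihh 12 each, and Nkx2-1 and Pax2, a kidney and eye factor, 11 each. Of the 1349 interactions between different RNAPII-free Polycomb peaks, 407, or 30.2%, spanned more than 2 Mb. Among those with at least 10 PETs the share was 2.41%. Hlx and Prox1 were joined over 5.44 Mb by 25 PETs, Foxf2 and Tfap2a over 9.11 Mb by 16, and Foxb1 and the Zic1 and Zic4 pair over 21.6 Mb by 11. Of the 544 peaks away from gene starts, 356, or 65.4%, were linked to an anchor that holds a gene start, among them a 3756 bp peak linked to the homeobox gene Dmbx1 by 1892 PETs. The same PET count was listed for peaks of 334 and 1194 bp on that chromosome, so these PETs cannot be assigned to a single peak. A partner among RNAPII-free Polycomb peaks was found for 43.6% of the peaks away from gene starts and 55.5% of those at one. At like length the shares were close, 37.0% and 35.2% at 1 to 3 kb and 67.3% and 70.4% at 3 to 10 kb.

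The deleted elements on chromosomes 9 and 7 were both RNAPII-free Polycomb peaks away from gene starts. The chromosome 9 peak, chr9:37454624-37462848, was 8225 bp long and 11.9-fold enriched, held a CTCF peak, and lay 86.3% inside the targeted interval, 21.4 kb from the nearest end of a coding gene, Robo3. In E14 cells it had 27 interactions with 387 PETs, of which 135 reached Robo3, an axon guidance receptor, 66 Esam, an endothelial adhesion gene, and 30 Pknox2. The chromosome 7 peak, chr7:143441553-143448202, was 6650 bp long and 13.9-fold enriched, held no CTCF peak and lay wholly inside its interval, 10.1 kb from Cdkn1c. It had 15 interactions with 82 PETs, of which 25 reached Phlda2, 9 Ascl2, 5 Kcnq1 and 4 Igf2, genes of an imprinted region.

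In the B6NJ Ezh2 libraries, which the choice of peaks did not use, RNAPII-free Polycomb peaks were touched by interactions more often than the other classes. An anchor touched 77.5% ± 7.04 of them (SD, n = 10 libraries), against 72.1% ± 7.13 of peaks with RNAPII in ChIA-PET only. The difference of 5.41 percentage points ranged from 2.84 to 7.44 and was positive in 10 of 10 libraries (exact sign-flip permutation test, two-sided, adjusted p = 0.00195, the smallest it can give). Against 62.9% ± 7.81 of peaks with RNAPII in ChIP-seq the difference was 14.7 points, 11.5 to 17.3 across libraries (same test, adjusted p = 0.00195). The libraries come from 5 lines, and over line means the same test gave p = 0.0625, which is the smallest that 5 values allow. Among peaks of 1 to 3 kb alone the differences were 6.92 and 17.4 points, in the same order.

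**Figure D3:**
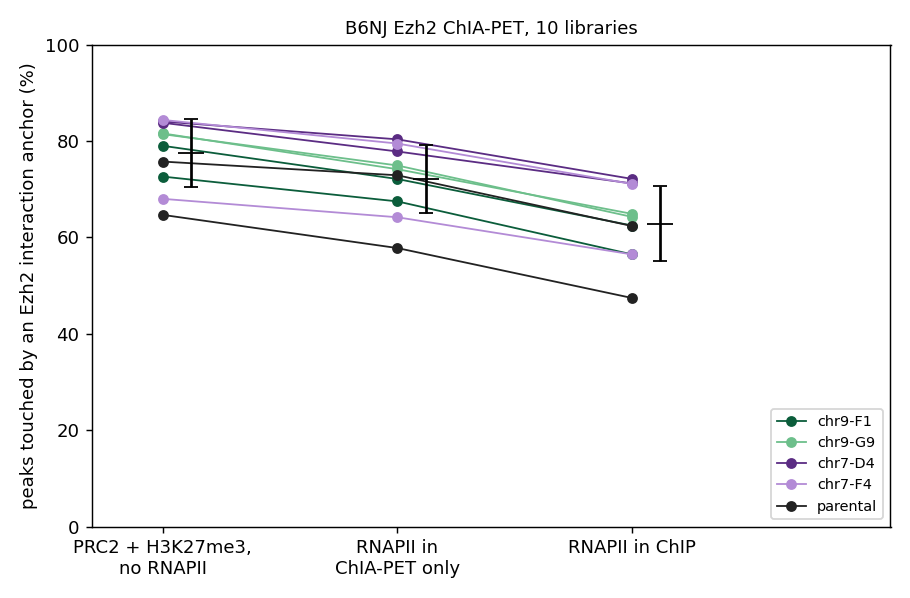
Share of peaks of each class touched by an Ezh2 interaction anchor in each of 10 B6NJ libraries (lines, coloured by cell line), with the mean and SD beside them. Every line runs downward from the peaks with no RNAPII, at 77.5% on average, to those with RNAPII in ChIP-seq, at 62.9%.

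The plot by library shows that the libraries differ in level, from 64.7% to 84.4% of RNAPII-free Polycomb peaks touched, and that the order of the classes is the same in each. All 10 libraries touched 944 of these peaks, 50.7%, against 43.1% of peaks with RNAPII in ChIA-PET only and 33.1% of peaks with RNAPII in ChIP-seq, and 58 were touched in none.

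The chromosome 7 peak had 0 Ezh2 interactions in each of the 4 chr7 libraries, against 8, 4, 4 and 3 in the chr9 libraries and 5 and 9 in the parental ones. The chromosome 9 peak had 2, 1, 1 and 2 in the chr9 libraries, against 8, 8, 9 and 8 in the chr7 libraries and 6 and 7 in the parental ones. These counts check the labels, since a deleted element should give few or none, and 86.3% of the chromosome 9 peak is inside its interval. The chr9-F1 library with the parental cell type label had 2 and was kept as chr9-F1. A link of the chromosome 9 peak to Robo3 was listed in 2 of 4 chr9 libraries, against 6 of 6 others. Links to Esam were listed in 1 and 4 of these, and to Pknox2 in 0 and 2. For the chromosome 7 peak, links to Phlda2 and Cdkn1c were listed in 2 of the 6 libraries without its deletion. Links to Kcnq1 and Igf2 were listed in 1 of those 6, and all of these in 0 of the 4 chr7 libraries.

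The number of interactions at RNAPII-free Polycomb peaks as a whole did not pass a test. Per 10000 interactions of a library, 4918 ± 328 had an anchor at such a peak in the 4 chr9 libraries, against 5132 ± 188 in the 6 others (SD; exact permutation test, two-sided, adjusted p = 0.448). The chr7 libraries had 5119 ± 198, against 4998 ± 303 in the 6 others (same test, adjusted p = 0.514). The smallest p this design allows is 0.00476. Both chr9-G9 libraries, at 4638 and 4629, were below all others, whereas chr9-F1 had 5214 and 5189.

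Genes at RNAPII-free Polycomb peaks had few RNA reads in parental B6NJ cells. In bulk libraries fewer expressing cells and less RNA per cell cannot be told apart, and CPM is not divided by transcript length, which the tables used here do not give. The median over 1140 coding genes at these peaks was 0.186 ± 0.0167 CPM (SD over 3 libraries), against 1.56 ± 0.0732 for 796 at peaks with RNAPII in ChIA-PET only, 5.75 ± 0.163 for 892 at peaks with RNAPII in ChIP-seq and 4.72 ± 0.0850 for all 20603 coding genes. Under 1 CPM were 72.6% of them, against 42.2% and 19.6% of genes at peaks with RNAPII in ChIA-PET only and in ChIP-seq, and 40.7% of all coding genes. Their median genomic span was 41.7 kb, against 26.9 and 32.9 kb in those classes and 18.03 kb over all coding genes. E14 chose the peaks and B6NJ gave the RNA, but the choice was made on RNAPII, so this is a description.

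**Figure D4:**
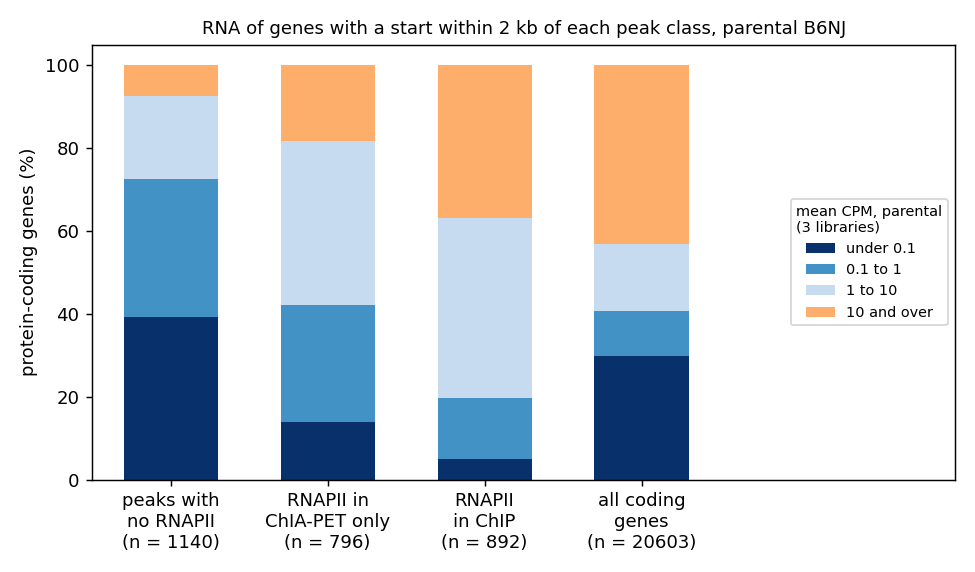
Protein-coding genes with a start within 2 kb of each peak class, split by their mean CPM over the 3 parental libraries, in % of the class. Genes under 1 CPM make up 72.6% at peaks with no RNAPII, 42.2% with RNAPII in ChIA-PET only, 19.6% with RNAPII in ChIP-seq and 40.7% of all coding genes.

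The plot of levels also shows a minority with many reads. Some of these genes have RNAPII near a start: Grb10, an imprinted growth inhibitor at 252 CPM, has its CpG-rich start outside its 2.46-fold peak, and Nxn at 124 CPM is the gene nearest to the limit of the rule. Counting only genes with no RNAPII peak within 2 kb of any start, 1136 of 1380 counted genes remained, with a median of 0.0740 ± 0.00458 CPM (SD over 3 libraries), and 25 of them reached 10 CPM. Tcf20 had 233 CPM at a 1.65-fold peak, Ramp2 90.9, Pfdn4 50.6, the germline helicase Ddx4 26.5, Enox1 25.7 and Olig2, the oligodendrocyte factor, 19.3 CPM at its 27.3-fold peak.

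Of the 1380 counted genes at RNAPII-free Polycomb peaks, 817 passed the filter on low counts and 563 did not. A gene low in every line cannot pass, so counts over the 817 do not speak for all 1380. The filter ran over all 26 libraries, so a gene can also pass through a line outside the comparison. The 4 deletions share the parental libraries as controls, and each deletion's own counts are given. Changes are log2 CPM, deletion clones minus parental, ± SE, with adjusted p-values from edgeR's quasi-likelihood test with Benjamini-Hochberg adjustment over 19993 genes.

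In the chr9 clones, more genes at RNAPII-free Polycomb peaks were called higher than lower, as was also the case in the other 2 peak classes. The test called 221 of 817 higher, 27.1%, where 17.1% of all tested genes were called higher, and 64 lower, 7.83%, where 20.6% of all were. Their median log2 change was 0.33, against -0.02 over all tested genes. Called in both clones were 108 higher, where 8.33% of all genes were, and 19 lower, where 7.5% were. Of genes at peaks with RNAPII in ChIA-PET only, 31.8% were called higher and 11.6% lower, and of those at peaks with RNAPII in ChIP-seq 32.6% and 14.2%. Level differs between the genes at these peaks and all genes, so shares were also set side by side at like level, by mean CPM over all RNA libraries. Called higher were 14.6% of 371 genes at RNAPII-free Polycomb peaks under 0.5 CPM against 14.1% of all, 37.9% of 198 against 22.7% at 0.5 to 2 CPM, 42.5% of 160 against 24.4% at 2 to 10 CPM and 27.3% of 88 against 14.6% above. Called lower were 1.35% against 1.83%, 7.07% against 6.67%, 16.3% against 16.8% and 21.6% against 35.4% in the same bins, so below 10 CPM the lower share was close to that of all genes. The clones differed, with 136 higher and 41 lower in chr9-F1 alone and 265 and 74 in chr9-G9 alone, and without parental replicate 3 the lower count was 39. Set against the 6 clones of other deletions in place of the parental line, 432 were higher and 129 lower. In that comparison depth and deletion cannot be told apart.

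Robo3, linked to the deleted peak, had 1.63 and 1.64 CPM in chr9-F1 and 1.41, 1.53 and 1.59 in chr9-G9, against 0.444, 0.397 and 0.544 in the parental line. Its peak, chr9:37430501-37436216, was 10.4-fold enriched. All chr9 libraries were above all parental ones, and Robo3 rose by 1.69 ± 0.30 (edgeR, adjusted p = 4.20e-05), and by 2.84 set against the 6 clones of other deletions. Esam, linked by 66 PETs and not at an RNAPII-free Polycomb peak, had a change of 0.28 ± 0.30 (edgeR, adjusted p = 0.507), and of 0.87 against those 6 clones (edgeR, adjusted p = 0.00048). Depth also differs between the chr9 clones and those 6. Pknox2, a homeobox gene linked by 30 PETs and also at no such peak, rose by 0.52 ± 0.08.

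Dcdc2a, a doublecortin-domain gene, had the largest rise among the genes named by rule in the chr9 clones, 2.62 ± 0.25 (edgeR, adjusted p = 7.59e-10), at the 6.34-fold peak chr13:25054862-25057673. It had 2.05 and 1.97 CPM in chr9-F1 and 5.71, 5.77 and 5.33 in chr9-G9, against 0.444, 0.417 and 0.686 in the parental line, with no overlap. Gata3, a factor of T cells and trophoblast, rose by 2.02 ± 0.33, and Gpat3, an enzyme of triglyceride synthesis, by 2.01 ± 0.12. Grb10 had the largest fall named, -1.67 ± 0.05 (edgeR, adjusted p = 2.27e-23), with 68.5 and 68.2 CPM in chr9-F1 and 104, 104 and 99.4 in chr9-G9, against 249, 253 and 254 in the parental line. Cxcl12, a chemokine, fell by 1.15 ± 0.16 and Kbtbd11 by 1.13 ± 0.15 on the log2 scale. Set against the 6 clones of other deletions in place of the parental line, the change was -0.12 for Grb10, 0.89 for Gata3 and 0.61 for Gpat3, and Kbtbd11 was higher by 0.78, whereas Dcdc2a was at 2.19 and Cxcl12 at -1.18. Markers of feeder fibroblasts moved too: 18 of 25 were called higher in the chr9 clones and 1 lower. Lum and Twist2 of this list did not pass the filter on low counts and could not be called in any deletion. Col1a1 averaged 25.5 CPM in chr9-F1 and 91.3 in chr9-G9, against 18.2 in the parental line. The summed level of the list was 1879 to 2499 CPM in the chr9 libraries, against 1761 to 2071 in the parental ones, most of it Fn1, and Lum was at 0.00554 CPM in chr9-F1 and 0.0468 in chr9-G9, against 0.00888 in the parental line. Of the 22 primitive endoderm markers, of which Afp and Ttr did not pass that filter either, 13 were called higher and 0 lower. Their sums were 1384 to 1505 CPM in the chr9 libraries, against 1139 to 1205 in the parental ones. The part of these cells in the counts was not tested.

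In the chr7 clones the test called 158 of the 817 genes at RNAPII-free Polycomb peaks higher, 19.3%, where 27.6% of all were, and 244 lower, 29.9%, where 35.7% of all were, with a median log2 change of -0.25 against -0.07 over all tested genes. Called in both clones were 122 higher, where 21.7% of all were, and 168 lower, where 28.7% were. At like level the order differed: under 0.5 CPM 6.47% were higher against 17.8% of all and 23.5% lower against 17.6%, and at 0.5 to 2 CPM 23.2% against 28.1% and 32.8% against 28.2%. At 2 to 10 CPM 34.4% were higher against 29.8% of all and 33.1% lower against 39.9%, and above 10 CPM 37.5% against 31.5% and 44.3% against 45.6%. Of the feeder fibroblast markers 2 were called higher and 14 lower, and of the primitive endoderm markers 6 and 2. The feeder sum went the other way, 2381 to 2628 CPM in chr7 libraries against 1761 to 2071 in parental ones. So did the endoderm sum, at 948 to 1004 CPM against 1139 to 1205. The part of these cells in these counts was not tested. Krt7, a keratin of simple epithelia, rose by 2.70 ± 0.10: it had 19.5, 18.6 and 20.7 CPM in chr7-D4 and 17.1, 16.5 and 16.6 in chr7-F4, against 2.36, 3.01 and 3.11 in the parental line. Atp2b2, a calcium pump, rose by 2.29 ± 0.11. Enox1, an oxidase gene at a 3.60-fold peak, fell by 3.49 ± 0.14 on the log2 scale (edgeR, adjusted p = 6.15e-20), with 1.67, 1.31 and 2.41 CPM in chr7-D4 and 1.89, 3.54 and 3.02 in chr7-F4, against 26.02, 26.9 and 24.2 in the parental line. Tchh, a hair follicle protein, fell by 2.69 ± 0.19 and Id3, an inhibitor of bHLH factors, by 2.66 ± 0.13. Set against the 6 clones of other deletions these changes were smaller, 0.77 for Atp2b2, -0.81 for Enox1, -1.46 for Tchh and -0.72 for Id3, and Krt7 was at 1.91. With only the chr7 and parental libraries in the model and its filter, 630 genes at RNAPII-free Polycomb peaks were tested. Of these, 170 were called higher and 196 lower. Their median log2 change was then -0.05, against 0.00013 over all tested genes. The shares at like level were not recomputed with this filter.

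Genes linked in E14 to the deleted chromosome 7 peak did not move one way in these clones. Few B6NJ Ezh2 libraries listed these links, as given above. Igf2, a fetal growth factor at a 22.004-fold RNAPII-free Polycomb peak, had 18.9, 17.3 and 15.9 CPM in chr7-D4 and 24.1, 25.01 and 24.6 in chr7-F4, against 4.92, 4.47 and 5.40 in the parental line, a rise of 2.08 ± 0.11 (edgeR, adjusted p = 5.03e-17). Igf2 was also higher in the clones of the other deletions, by 0.90 ± 0.11 in chr9, 1.96 in chr3 and 2.03 in chr2, with the same parental controls. Kcnq1, a potassium channel, rose by 1.192 ± 0.34 in chr7, and Phlda2, which is not at an RNAPII-free Polycomb peak, by 0.54 ± 0.07. Cdkn1c, the nearest coding gene, is also at no such peak and had no listed E14 link, and it rose by 1.16 ± 0.11. Ascl2, a bHLH factor at no such peak, fell by 0.39 ± 0.12 on the log2 scale. Robo3 fell by 1.76 ± 0.35 in the chr7 clones on the log2 scale.

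In the chr3 clones 113 of the 817 genes were called higher, where 25.4% of all were, and 288 lower, 35.3%, where 35.4% of all were. The higher share was 13.8%, and the median log2 change was -0.37 against -0.07 over all tested genes. At like level, higher calls were 4.85% against 15.1% of all under 0.5 CPM, 11.1% against 22.5% at 0.5 to 2 CPM, 28.1% against 25.1% at 2 to 10 CPM and 31.8% against 31.4% above. Lower calls were 28.6% against 18.9%, 37.4% against 30.9%, 40.6% against 41.1% and 48.9% against 43.2% in the same bins. These bins hold genes that passed the filter over all 26 libraries, some of them through other lines. Called in both clones were 81 higher, where 19.9% of all were, and 179 lower, where 27.3% were. Dner, a Notch-binding neuronal protein, rose by 2.33 ± 0.14 and Krt7 by 2.32 ± 0.10, with Atp2b2 next at 2.0996; against the 6 clones of other deletions these were 1.39, 1.40 and 0.51. The largest falls named were those of Lox, Prss23 and Col12a1: Lox, a collagen cross-linking enzyme, fell by 2.97 ± 0.28, Prss23, a serine protease, by 2.66 ± 0.31 and Col12a1, a collagen, by 2.54 ± 0.25. Lox had 0.584, 0.405 and 0.401 CPM in chr3-C2 and 1.38, 1.08 and 1.497 in chr3-H7, against 5.89, 4.69 and 8.64 in the parental line. Lox is itself in the feeder fibroblast list, of which 20 of 25 members were called lower in the chr3 clones and 1 higher, with Col1a1 at 2.82 CPM in chr3-C2 and 3.39 in chr3-H7, against 18.2 in the parental line. The summed level of the list went the other way, 2479 to 3219 CPM in the chr3 libraries against 1761 to 2071 in the parental ones, most of it Fn1, and Lum was at 0 in both chr3 clones and 0.00888 CPM in the parental line. The part of feeder RNA in these falls was not tested. With only the chr3 and parental libraries in the model and its filter, 634 genes at RNAPII-free Polycomb peaks were tested. Of these, 123 were called higher and 216 lower. Their median log2 change was then -0.19, against -0.0056 over all tested genes. Shares at like level were not recomputed with that filter.

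In the chr2 clones 259 of the 817 genes were called higher, 31.7%, where 31.2% of all were, and 178 lower, 21.8%, where 34.1% of all were. The median log2 change was 0.18 against -0.02 over all tested genes. At like level, higher calls were 19.7% against 25.2% of all under 0.5 CPM, 36.9% against 34.9% at 0.5 to 2 CPM, 47.5% against 35.1% at 2 to 10 CPM and 42.0% against 31.8% above. Lower calls were 13.7% against 12.4%, 24.2% against 23.9%, 25.6% against 37.3% and 43.2% against 46.9% in the same bins. Called in both clones were 154 higher, where 19.3% of all were, and 87 lower, where 21% were. Feeder fibroblast markers were called higher in 5 and lower in 8 cases and primitive endoderm markers in 12 and 4. The feeder sum was 2251 to 2364 CPM in chr2-D10 and 1605 to 1648 in chr2-G5, against 1761 to 2071 in parental libraries. The endoderm sum was 1548 to 1592 and 1476 to 1498 CPM, against 1139 to 1205. The part of these cells was not tested. Gpat3 had 17.6, 19.2 and 19.3 CPM in chr2-D10 and 16.1, 13.02 and 16.2 in chr2-G5, against 1.96, 1.55 and 2.00 in the parental line, a rise of 3.20 ± 0.12. Dcdc2a rose by 3.91 ± 0.26 and Gata3 by 3.48 ± 0.34, and all 3 are also the rises named in the chr9 clones, which share the parental controls. Enox1 fell by 4.31 ± 0.16, Id3 by 2.99 ± 0.14 and Kbtbd11 by 2.38 ± 0.16 on the log2 scale. Set against the 6 clones of other deletions the changes were 2.19 for Gpat3, 3.91 for Dcdc2a, 2.84 for Gata3, -1.90 for Enox1, -1.17 for Id3 and -0.90 for Kbtbd11. Enox1 had 0.402, 0.250 and 0.383 CPM in chr2-D10 and 5.76, 4.68 and 4.14 in chr2-G5, against 26.02, 26.9 and 24.2 in the parental line, and both clones were below the parental line.

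The counts by list are to be read against the shares of all tested genes called higher and lower, 17.1% and 20.6% in chr9, 27.6% and 35.7% in chr7, 25.4% and 35.4% in chr3 and 31.2% and 34.1% in chr2. No list was tested against them, and 4 of 20 receptors, for example, is near the chr9 share. Of 36 homeobox genes at RNAPII-free Polycomb peaks that passed the filter, 12 were called higher and 1 lower in the chr9 clones, 1 and 8 in chr7, 2 and 15 in chr3 and 16 and 5 in chr2. Of 25 forkhead, Gata, Sox, T-box and bHLH regulators, 9 were higher and 1 lower in chr9, 2 and 5 in chr7, 0 and 8 in chr3 and 9 and 5 in chr2. Ion channels, of which 31 were tested, had 7 higher and 1 lower in chr9, 9 and 6 in chr7, 5 and 6 in chr3 and 11 and 2 in chr2. Of 20 neurotransmitter receptors, 4 were higher and 0 lower in chr9, 3 and 4 in chr7, 3 and 5 in chr3 and 3 and 3 in chr2. Of 23 secreted ligands and antagonists, 4 were higher and 2 lower in chr9, 1 and 9 in chr7, 2 and 11 in chr3 and 6 and 6 in chr2. Of 16 adhesion and guidance genes, 6 were higher and 2 lower in chr9, 6 and 7 in chr7, 5 and 5 in chr3 and 4 and 4 in chr2. Of 14 solute carriers, 6 were higher and 1 lower in chr9, 2 and 1 in chr7, 3 and 3 in chr3 and 7 and 1 in chr2. The Hox, imprinted, germline, primitive endoderm and feeder lists had 1, 3, 3, 7 and 2 tested genes.

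**Figure D5:**
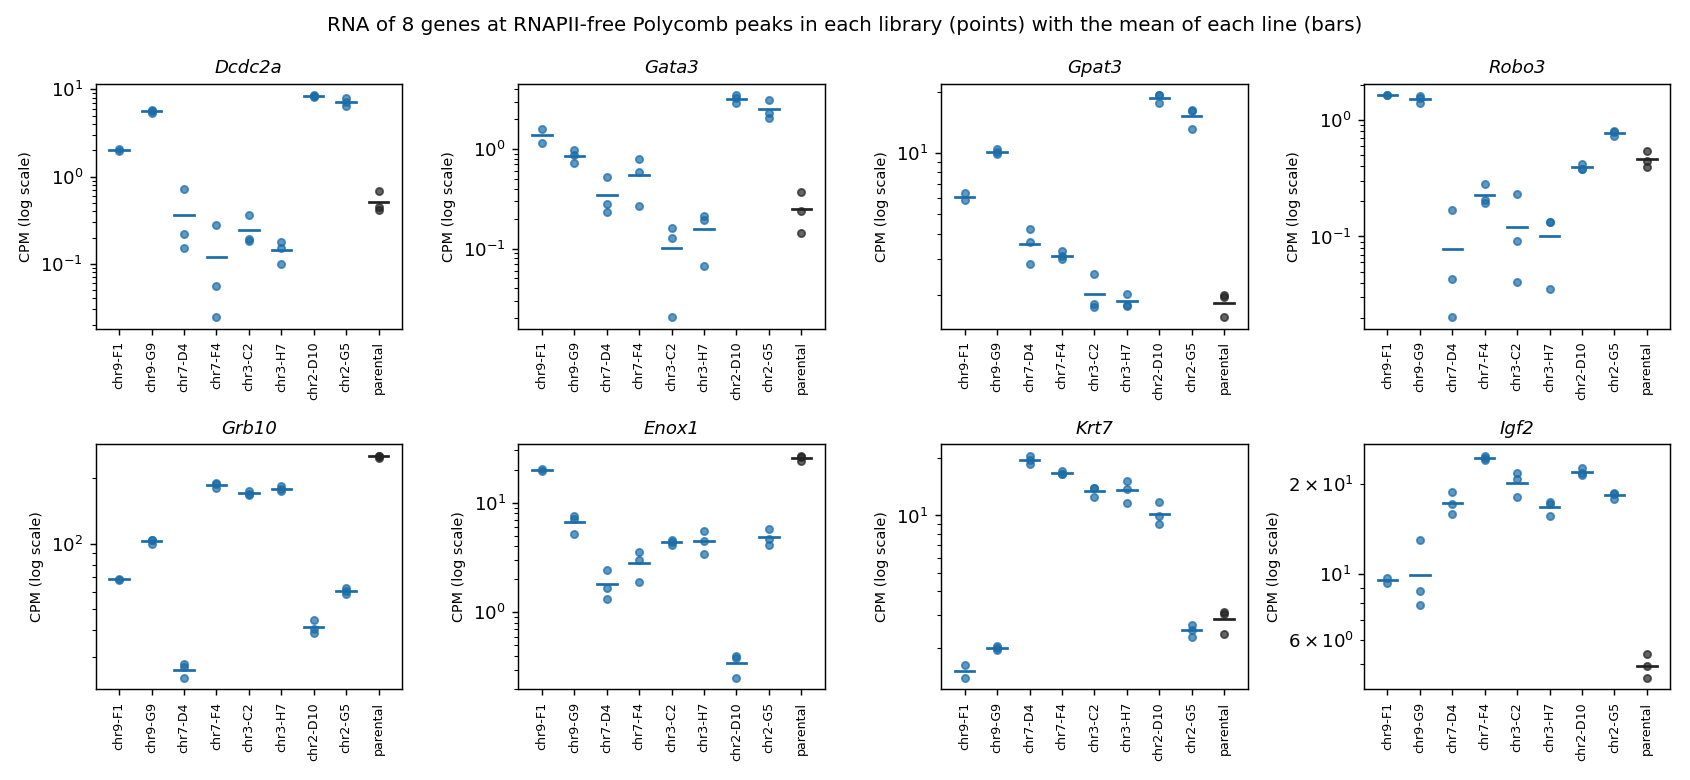
CPM (log axis) of 8 genes at RNAPII-free Polycomb peaks in each RNA library (points) with the mean of each line (bars), deletion clones in blue and the parental line in black. Igf2 is lowest in the parental line at 4.47 to 5.40 CPM, and Enox1 at 24.2 to 26.9 CPM in the parental line is above every deletion library.

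The plot of single genes shows that the 2 clones of a deletion can differ: Grb10 had 26.9, 27.8 and 23.9 CPM in chr7-D4 and 188, 190 and 180 in chr7-F4, against 249, 253 and 254 in the parental line.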

How the data were processed

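PRC2, H3K27me3, RNAPII and CTCF were mapped in E14 cells, and RNA and Ezh2 contacts in B6NJ lines. The deposited peak lists hold pooled calls with a fold enrichment (ratio over background) and a −log10 q per peak, made by the authors' peak caller. The submitters' processing notes list MACS2 2.1.1.20160309 and BWA 0.7.12. The deposited interaction lists give counts of PETs, and ChiaSig made the E14 list, per its file name. No source used here names the caller of the Ezh2 lists. The deposited RNA files hold raw counts per gene on mm10, and the submitters' processing notes name HISAT2 2.1.0 and HTSeq 0.6.1. No source used here says whether counting was stranded, and overlapping antisense genes can be mixed.

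From these files, overlaps of 1 bp set the classes, and a gene was at a peak when a start lay within 2 kb. RefSeq starts (GRCm38.p6) were used for 26794 genes and both gene ends for 22760 others. Counts were tested with edgeR 4.0.16 (filterByExpr, TMM, quasi-likelihood test, R 4.3.3) in 1 model of 26 libraries, with calls at an adjusted p under 0.05. A robust quasi-likelihood fit was run first and replaced by the default after its counts were seen, to follow the earlier processing of these files. On simulated chr9 counts over 19296 genes, all 67, 67 and 66 genes changed by 1.5-fold, 2-fold and 4-fold came back, beside 11 false calls. The changed genes were drawn only from genes above about 1 CPM, and all genes were given the same spread. This recovery therefore does not speak for genes with few reads. Among the tested genes at RNAPII-free Polycomb peaks, 371 averaged under 0.5 CPM over all RNA libraries. Symbols carried by several IDs (71) were left out of the counts of genes at peaks. Replicates differed by at least 4.26 times the sampling noise, so none was counted as a duplicate.

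Named are the 10 most enriched peaks at genes, the 10 links with most PETs between such peaks at least 20 kb apart, for each deletion the 3 genes with the greatest rise and fall that passed in each clone and averaged 1 CPM or more, genes with most parental CPM, genes linked to the 2 targeted peaks, and 3 genes per list; some genes that this rule names are not reported here. The members, lists and tests were chosen with earlier results of these data known. The homeobox pattern was narrowed after unrelated symbols were seen in it, the printed starts and plotted genes were picked with their values known, and the comparison of the chr7 clones for Grb10 was added after its values were seen. Alternatives were DESeq2 1.42.0, other size factors, filters, controls, thresholds and definitions, and each library left out. Python 3.11.15 with scipy 1.17.1 was used. E14 RNA, ATAC and inputs were not used here.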

Additional observations from a re-analysis of the deposited data

Results flagged for a closer look

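Among the 4 chr7 Ezh2 libraries, chr7-F4 replicate 2 stood apart, with 5414 interactions at RNAPII-free Polycomb peaks per 10000 interactions. It also had the fewest of those peaks touched among the chr7 libraries, 68.0%. A gap like the first appears by chance in about 1 of 20 groups. Several groups and measures were checked, so a single flag is not unusual.

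For the genes named from the 4 deletions, the 2 clones of the same deletion were compared in the same edgeR model, in 25 tests, and 7 differed at an adjusted p under 0.05. Dcdc2a was higher in chr9-G9 than in chr9-F1 by 1.44 on the log2 scale, Gpat3 by 0.69 and Grb10 by 0.54. In the chr2 clones, G5 minus D10 was 3.76 for Enox1, 1.65 for Id3 and -0.36 for Gpat3. For Grb10, chr7-F4 minus chr7-D4 was 2.82, a comparison added after its values were seen. In each of these the clones lay on the same side of the parental line.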

How the results depend on the processing

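Requiring H3K27me3 over 50% of the PRC2 peak left 1182 RNAPII-free Polycomb peaks, a fold enrichment of 5 left 991 and an H3K27me3 −log10 q of 5 left 42. The share with a gene start was then 74.0% and 82.2% under the first and second of these, 59.0% for a start inside the peak and 81.1% within 5 kb, and the share with CTCF 24.02% at the fold limit. The share of peaks linked in E14 was 84.0% at 5 PETs, 64.8% at 10 PETs and 89.5% where the anchor covered 50% of the peak, and interactions leaving to another such peak were 13.9% and 17.8% at 5 and 10 PETs. Over line means the Ezh2 differences were 5.41 and 14.7 points (exact test, p = 0.0625). Genes called higher and lower against a 1.5-fold change were 60 and 6 in chr9, 61 and 129 in chr7, 32 and 148 in chr3 and 126 and 80 in chr2, so higher calls were 90.9% of calls in chr9 and 17.8% in chr3, against 77.5% and 28.2% in the main test. Against the 6 clones of other deletions chr9 had 432 higher and 129 lower, Kbtbd11 turned to 0.78 higher and Grb10 was at -0.12. Scaled by library size only, 42 were lower in chr9, and the median of all tested genes in chr3 was -0.14. With only the compared libraries in the model, 309 were higher and 84 lower of 892 in chr9, and 170 and 196 of 630 in chr7. In chr3 the counts were 123 and 216 of 634, and in chr2 259 and 148 of 659. The median log2 changes were then 0.36, -0.05, -0.19 and 0.25 in chr9, chr7, chr3 and chr2, against 0.33, -0.25, -0.37 and 0.18 in the main test. Genes with no RNAPII peak within 2 kb gave 41 lower in chr9, 75 higher in chr3 and 108 lower in chr2. Clone chr9-F1 alone, added after the data were seen, gave 136 higher and 41 lower. The robust fit gave 221 higher and 63 lower in chr9, 157 and 243 in chr7, 111 and 289 in chr3 and 260 and 177 in chr2. The median parental level was 0.108 CPM for starts inside the peak, 0.0740 for genes with no RNAPII within 2 kb and 0.186 for coding genes.

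Leaving out 1 library at a time gave 174 to 211 higher and 39 to 73 lower in chr9, 139 to 159 and 208 to 245 in chr7, 93 to 114 and 245 to 288 in chr3 and 229 to 255 and 153 to 178 in chr2, and a median parental level of 0.116 to 0.127 CPM. Same-numbered libraries did not deviate together (median correlation -0.003 over 100 pairs), and 8 of 26 correlated best with their own number. With a replicate block the calls were 213 and 65 in chr9, 158 and 241 in chr7, 110 and 282 in chr3 and 256 and 177 in chr2, and the exact Ezh2 tests p = 0.5 for chr9 and p = 0.52 for chr7. The cause of these shifts was not tested, except that stricter limits keep fewer peaks or genes. The E14 maps are pooled and carry no replicate error, and depth differs between the parental and chr9 libraries and the rest.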
